A study of Mus musculus with 18 samples.

Results

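The comparison described here follows the cerebellum of mice without cholecystokinin (Cck-/-) from 12 to 28 weeks of age. It rests on 6 of the 18 RNA-seq libraries of the series, 3 from Cck-/- mice at week 12 and 3 from Cck-/- mice at week 28, chosen by their labels. The other 12 libraries are Cck-/- mice at week 5 (3 libraries) and ATXN1[30Q]D776/Cck-/- mice at weeks 5, 12 and 28 (3 libraries each), all on the FVB strain. Every library in the series is labelled Cck-/-, including those without the transgene, so no wild-type level is available for any value below. The promoter that drives the transgene, the sex of the animals and whether any tissue was pooled are not stated in the sources used here, and p-values measure the spread between libraries, which may be partly technical. Levels are FPKM (fragments corrected for transcript length and library total), as the authors deposited them. A difference is a log2 fold change, week 28 minus week 12, on the log2(FPKM + 1) scale, which understates the change of genes near 0. A gene is called where limma gave a Benjamini-Hochberg adjusted p under 0.05 over the 13487 genes tested, the genes that reached an FPKM of 1 in 3 or more of the 18 libraries.

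The cerebellar cortex is built from densely packed granule neurons, the Purkinje cells that carry its output, inhibitory interneurons of the molecular layer, and glia that include the Bergmann astrocytes. Between young adulthood and mid-life its circuits are in place and myelin is largely laid down. Expression then follows slower processes such as glial ageing, and also states that vary over hours, such as neuronal activity and the circadian clock. Cholecystokinin is a neuropeptide that signals through the receptors Cckar and Cckbr.

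Cck, the deleted gene, still had an FPKM of 13.8, 16.6 and 11.1 at week 12 and of 7.34, 3.85 and 3.71 at week 28. The labels do not say which part of the gene is missing, so these values check neither the genotype nor the peptide. Cck was at 17.1 to 25.8 FPKM in the Cck-/- libraries of week 5, at 81.0, 112 and 102 in the libraries labelled transgenic week 5, and at 12.8 to 17.1 in those of transgenic week 12. The high level at transgenic week 5 goes against what a deletion of the whole gene would give, and those 3 libraries enter the comparison only through the shared spread. Cck fell by 1.35 on the log2 scale (SE 0.23, adjusted p = 0.00259 by limma), and its groups did not overlap, as in 30.0% of all genes tested. In a fit of these 6 libraries alone the adjusted p was 0.0603. Cckbr stood between 0.705 and 1.87 FPKM in the 6 libraries, with a log2 difference of -0.17 that was not called (adjusted p = 0.67), and Cckar stayed under the minimum for testing, at 0.0838 FPKM or less.

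The 6 libraries carried the markers of cerebellum: Pcp2 and Calb1 of Purkinje cells stood at 684 to 753 and 366 to 410 FPKM, and Mbp of myelin at 1191 to 1579. Xist marked week 12 replicate 1 and week 28 replicates 2 and 3, and Y-linked genes the other 3, so the sexes were unevenly split between the ages. No counts were available, so a relative depth was estimated from genes below 0.05 FPKM in every library. It is the inverse of the most common ratio of their values to those of week 12 replicate 1, over 284 to 469 genes. This assumes that most of these values stand for the same small number of fragments. The relative depth was 1 to 1.15 in the week 12 libraries and 1.39 to 1.83 in the week 28 libraries. The transgenic libraries showed the same split, with 0.785 to 1.12 at weeks 5 and 12 and 1.40 to 1.82 at week 28. Depth and age therefore cannot be told apart in either genotype. Week 28 replicate 1 stood apart: its mean log2(FPKM + 1) over the 22 granule neuron markers was 5.97 against 6.37 to 6.57 in the other 5 libraries, and over the 20 markers of meninges and fibroblasts it was 4.30 against 3.12 to 3.50. The share of each cell type in the tissue and the RNA per cell cannot be told apart in these bulk samples.

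**Figure D1:**
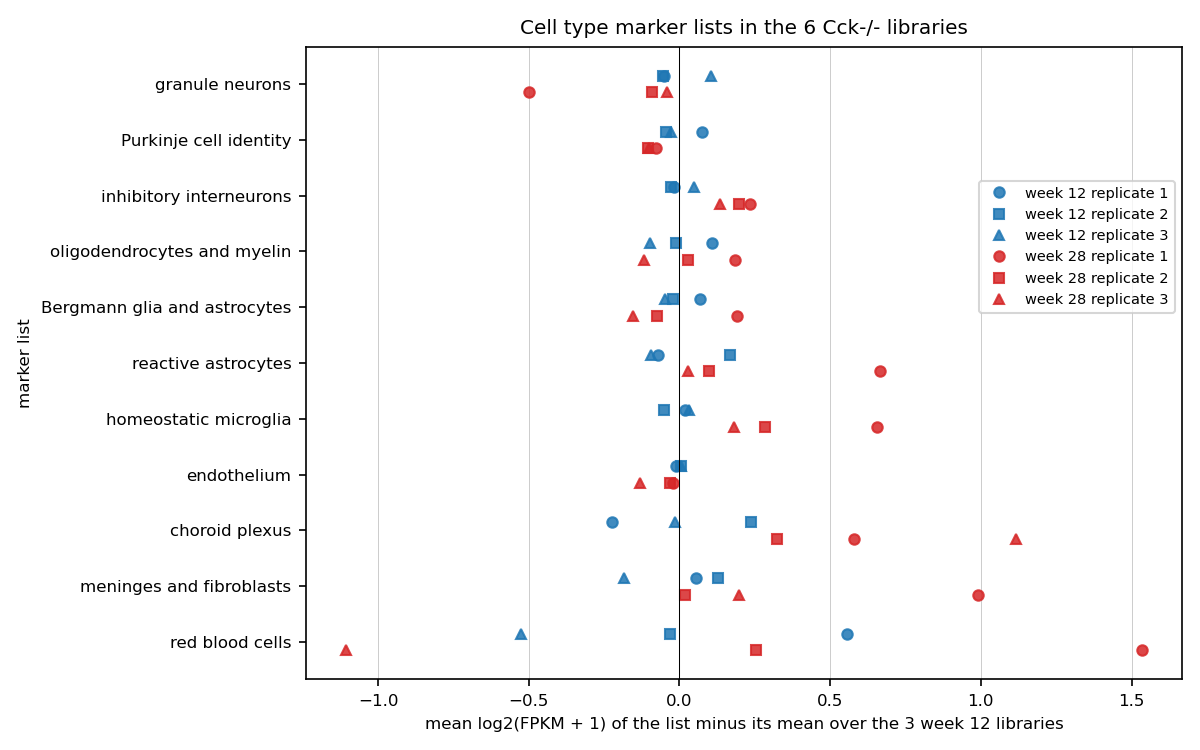
Mean log2(FPKM + 1) of the tested members of 11 marker lists (rows) in each of the 6 Cck-/- libraries, minus the list's mean over the 3 week 12 libraries (horizontal axis, log2 units). Colours give the age and symbols the replicate; week 28 replicate 1 lies lowest for granule neurons and highest for homeostatic microglia, meninges and red blood cells, and all 3 week 28 libraries lie above the week 12 libraries for choroid plexus, interneurons and homeostatic microglia.

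Between week 12 and week 28, 1301 genes were called, which is 9.65% of those tested. Of these, 543 rose (4.03%) and 758 fell (5.62%), and the changes were mostly small: the median size of a called change was 0.27 on the log2 scale, and 32 genes changed by 1 or more, 15 of them higher and 17 lower. The counts of called genes in the lists below are to be read against these shares of all genes tested. The 2 ages did not overlap in 30.0% of all genes tested, and in 1289 of the 1301 called. Absence of overlap therefore adds little to a call. The call depends on the spread shared by all 6 groups of the series: with only the 6 libraries compared in the fit, 140 genes were called. Of 104 called genes followed one by one, 41 kept their call in that fit and 63 lost it. Those described below that kept it are Nr4a2, Nr4a3, Fosl2, Klf2, Homer1, Per1, Cry1, Nfil3, Nr1d1, Dbp, Spry4, Spred2, Dusp4, Trib1, Bdnf, Srsf5, Neat1, Eomes, Cpne8, Ctsz, Col6a1, Bcan, Cdkn1a, Nox1, Rpl14-ps1, Srsf4, Gm12992, Hvcn1, Tctn1, Dynlt1a, Grin1os, Amd2, Gdf1, Rnaset2a, Rpl31-ps12, Adamts13, Rn45s, Lars2 and Tmem37. Every other call given below for a Cck-/- gene was lost in it. Leaving out a library moved the count to 713, 691 and 635 without week 12 replicates 1, 2 and 3, and to 819 and 707 without week 28 replicates 2 and 3. Without week 28 replicate 1 it was 1301 again, of which 888 were among the genes called with it.

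The same interval in the transgenic mice called 3216 genes (23.8%), 1370 higher (10.2%) and 1846 lower (13.7%). These calls share no library with those in Cck-/- mice, but both came from the same fit, with the same spread for each gene. A gene with a small shared spread is therefore favoured for a call in both genotypes, and the overlap of the calls is not independent. Of the 1301 genes called in Cck-/- mice, 1258 (96.7%) had the same sign in transgenic mice, against 72.2% of all genes tested. The 848 genes called in both genotypes all changed in the same direction, 340 higher and 508 lower, and they make up 65.2% of the Cck-/- calls and 26.4% of the transgenic calls. A direct test of whether the change from week 12 to 28 differed between genotypes called 0 genes by limma (percent called 0), with 1365 genes (10.1%) at an unadjusted p under 0.05. It called 2344 when libraries were weighted by their quality and 149 without transgenic week 28 replicate 3. The 5 genes with the smallest p in that test, A730090H04Rik, Sema6d, Gm6644, Ctxn3 and Map4k5, were not called in Cck-/- mice, where their log2 differences were -0.05, -0.04, 0.20, 0.17 and -0.12.

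**Figure D2:**
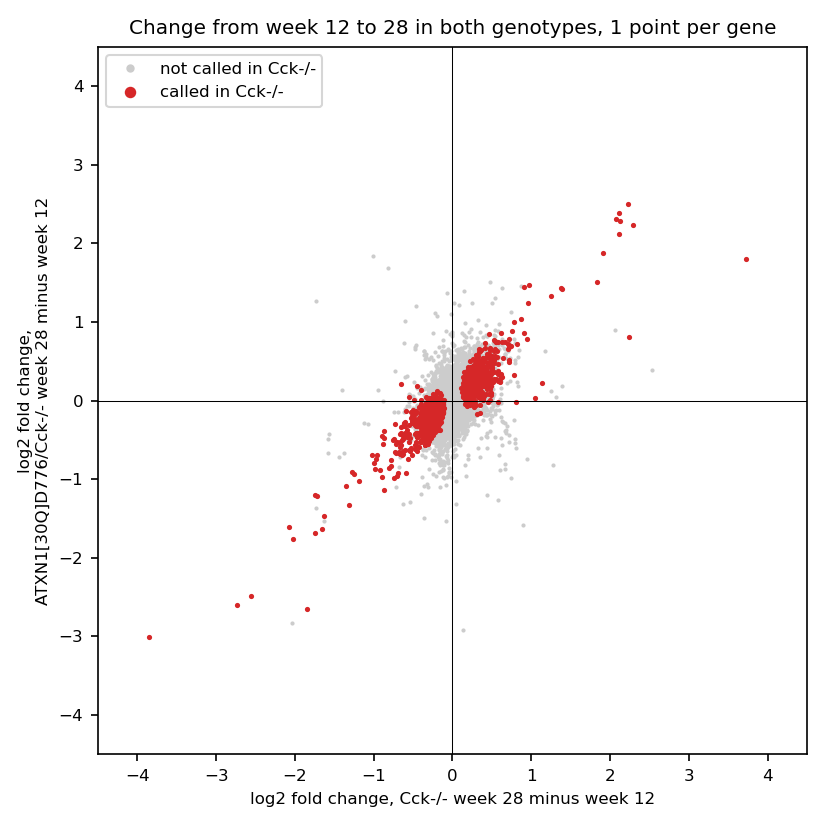
Log2 fold change from week 12 to week 28 in Cck-/- mice (horizontal axis) and in ATXN1[30Q]D776/Cck-/- mice (vertical axis), 1 point for each of the genes tested, except 1 that lies outside the axes. Genes called in Cck-/- mice are coloured, and 1258 of these 1301 lie in the quadrants where both genotypes have the same sign.

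Immediate early genes are those that neurons switch on within minutes of activity. Of 22 tested, 9 fell and 0 rose, with a median log2 fold change of -0.43 against -0.00079 over all genes tested. The 3 members of the Nr4a family of orphan nuclear receptors, transcription factors that are induced by calcium and cAMP, led the list. Nr4a3 had an FPKM of 6.46, 8.33 and 9.56 at week 12 and of 0.899, 1.39 and 1.14 at week 28, a log2 fold change of -2.08 (SE 0.22, adjusted p = 4.87e-05 by limma). Nr4a2 had 6.05, 9.82 and 8.78 FPKM at week 12 and 1.74, 1.59 and 1.95 at week 28 (log2 fold change of -1.72 ± 0.15 SE, adjusted p = 5.26e-06). Nr4a1 had 11.5, 14.3 and 20.8 FPKM at week 12 and 5.86, 4.41 and 6.85 at week 28 (log2 fold change of -1.28 ± 0.23 SE, adjusted p = 0.00411). For each of the 3 genes every week 28 library lay below every week 12 library and below the 3 week 5 libraries, which had 5.02 to 7.85 FPKM of Nr4a3, 5.69 to 8.24 of Nr4a2 and 9.6 to 13.3 of Nr4a1. All 3 also fell in the transgenic mice, by 1.60, 1.21 and 0.91 on the log2 scale. In a fit of the 6 libraries alone Nr4a1 was not called (adjusted p = 0.0566).

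The promoters of these receptors are shown because the family fell together. Each stretch runs from 250 bases before to 50 bases after the RefSeq transcription start on GRCm38.p6, is printed 5′ to 3′ on the gene's strand, and has in capitals each TGACG on either strand (CGTCA where it lies on the other strand), the core of the cAMP response element. For Nr4a3 the RefSeq start lies upstream of the interval the deposited table gives for the gene. The intervals are chr15:101266596-101266895 on the plus strand for Nr4a1, chr2:57123954-57124253 on the minus strand for Nr4a2 and chr4:48045055-48045354 on the plus strand for Nr4a3.
Nr4a1: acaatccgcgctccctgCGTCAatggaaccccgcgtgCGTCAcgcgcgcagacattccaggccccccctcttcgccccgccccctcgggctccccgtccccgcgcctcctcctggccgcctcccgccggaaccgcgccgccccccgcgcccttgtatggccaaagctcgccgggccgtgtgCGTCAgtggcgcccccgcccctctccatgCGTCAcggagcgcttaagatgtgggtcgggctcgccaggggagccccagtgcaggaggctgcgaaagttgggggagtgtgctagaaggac
Nr4a2: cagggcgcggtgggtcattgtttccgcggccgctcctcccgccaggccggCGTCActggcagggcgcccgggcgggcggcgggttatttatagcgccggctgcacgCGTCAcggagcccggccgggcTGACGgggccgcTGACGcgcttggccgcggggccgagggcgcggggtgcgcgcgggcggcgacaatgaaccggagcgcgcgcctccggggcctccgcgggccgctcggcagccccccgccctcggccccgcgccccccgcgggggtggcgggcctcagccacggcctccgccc
Nr4a3: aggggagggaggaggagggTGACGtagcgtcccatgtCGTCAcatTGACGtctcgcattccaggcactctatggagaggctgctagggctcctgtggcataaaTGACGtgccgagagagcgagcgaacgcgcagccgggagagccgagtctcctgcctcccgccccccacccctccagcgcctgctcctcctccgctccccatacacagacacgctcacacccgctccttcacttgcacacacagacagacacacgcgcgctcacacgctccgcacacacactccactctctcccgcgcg
Each of the 3 windows holds 4 matches. Of the 9 immediate early genes that fell, 8 had at least 1 TGACG in a listed promoter (Fosl2 had 0), as did 6228 of the 27025 genes in the promoter table. The full palindrome TGACGTCA was in none of the 9 and in 549 of the 27025 genes (2.03%). A match describes the letters of the window and shows no binding.

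The other members of the group were genes of the same rapid response. Fosl2, a subunit of the AP-1 transcription factor, had 3.24, 3.27 and 4.10 FPKM at week 12 and 1.18, 1.30 and 1.19 at week 28 (log2 fold change of -1.03 ± 0.11 SE, adjusted p = 7.04e-05 by limma). Per1, which is both activity-induced and part of the clock, fell by 0.86, Klf2 by 0.89 and Homer1, whose short form remodels glutamate receptor scaffolds, by 0.61. Egr4 fell by 0.69 and Klf4 by 0.75. Egr4 was not called without week 12 replicates 2 or 3 (adjusted p = 0.0571 and 0.0564), nor Klf4 without week 12 replicates 1 or 3 or week 28 replicates 2 or 3 (adjusted p from 0.0677 to 0.112). The decline did not cover the whole list. Fos had 15.2, 26.2 and 23.6 FPKM at week 12 and 9.91, 3.08 and 12.9 at week 28, a log2 difference of -1.38 that was not called (SE 0.42, adjusted p = 0.0508). Arc and Egr1, both widely used as activity markers, had log2 differences of 0.17 and 0.35 and were not called (adjusted p = 0.34 and 0.12).

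Spred2, Dusp4, Dusp5, Trib1 and Bdnf were chosen after their values were seen, because they fell, and stand for no gene group. Spred2, an inhibitor of Ras and MAP kinase signalling, had 37.2, 36.3 and 34.8 FPKM at week 12 and 18.8, 19.5 and 19.3 at week 28 (log2 fold change of -0.87 ± 0.11 SE, adjusted p = 0.000284 by limma). Spry4, another inhibitor of this pathway and one of the 15 largest decreases, had 6.65, 8.33 and 6.51 FPKM and then 3.06, 2.22 and 2.03 (log2 fold change -1.25). Dusp4 and Dusp5, phosphatases of MAP kinases, fell by 0.99 and 0.78, and the pseudokinase Trib1 by 0.70. Dusp5 was not called without week 12 replicate 3 or week 28 replicate 1 (adjusted p = 0.0858 and 0.0593). Bdnf, which supports neurons and synapses, had 6.46, 7.62 and 6.34 FPKM at week 12 and 3.44, 3.00 and 2.56 at week 28 (log2 fold change -0.97, adjusted p = 0.000474). The groups did not overlap for any of these 6 genes, as for 30.0% of all genes tested and 1289 of the 1301 called. All 6 fell in the transgenic mice as well.

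**Figure D3:**
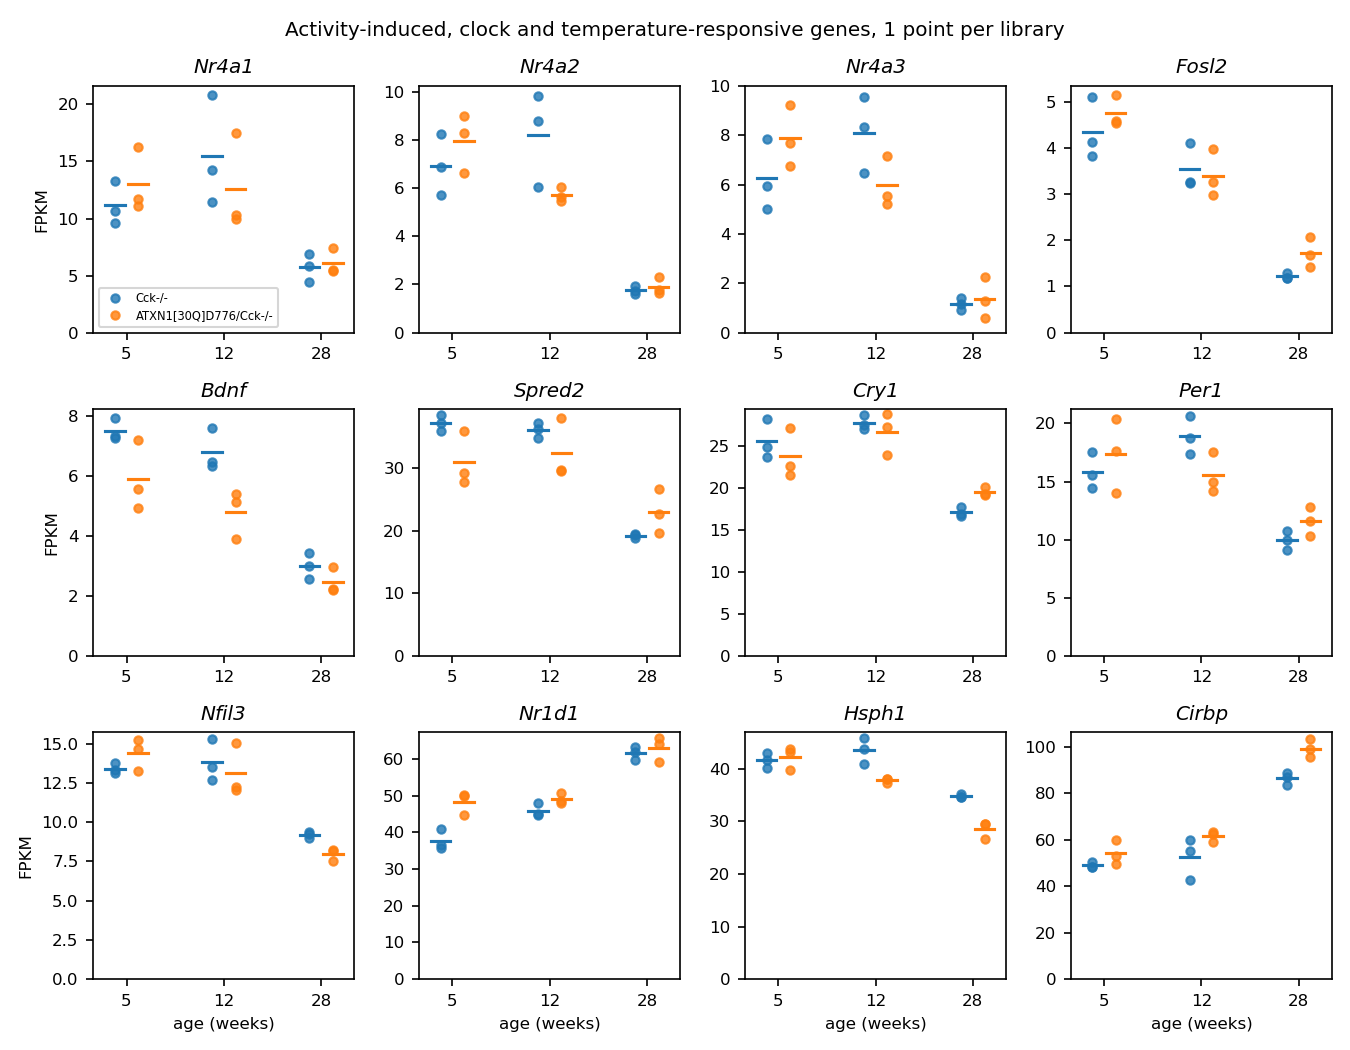
FPKM (vertical axes, from 0) of 12 genes at weeks 5, 12 and 28 (horizontal axes) in Cck-/- and ATXN1[30Q]D776/Cck-/- libraries, 1 point per library with a line at the mean of each group of 3. In the Cck-/- libraries all panels but those of Nr1d1 and Cirbp are lower at week 28 than at week 12, and weeks 5 and 12 lie closer to each other than to week 28 in most panels.

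Clock genes moved in both directions. Of 21 tested, 4 rose and 6 fell, so that 47.6% of the list was called while its median log2 fold change was -0.03. The clock runs on the activators Clock and Arntl (BMAL1), which switch on their own repressors, the Per and Cry genes, together with the nuclear receptor Nr1d1 (REV-ERB alpha) and output genes such as Dbp. Cry1 had 27.0, 27.5 and 28.7 FPKM at week 12 and 16.9, 16.6 and 17.8 at week 28 (log2 fold change of -0.67 ± 0.08 SE, adjusted p = 0.000233 by limma). Per1 had 17.4, 18.7 and 20.6 FPKM and then 9.12, 10.7 and 9.99 (log2 fold change -0.86, adjusted p = 0.000614), and the repressor Nfil3 had 12.7, 13.5 and 15.3 and then 8.97, 9.37 and 9.26 (log2 fold change -0.54, adjusted p = 0.000924). None of these 3 overlapped between the ages, as in 30.0% of all genes tested.

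On the other side, Nr1d1 had 47.9, 44.8 and 44.7 FPKM at week 12 and 59.7, 61.7 and 63.2 at week 28 (log2 fold change of 0.42 ± 0.06 SE, adjusted p = 0.000694 by limma). Dbp rose from 24.3, 22.8 and 20.5 to 35.1, 32.9 and 37.0 FPKM (log2 fold change 0.62), and the repressor Ciart from 6.15, 5.64 and 5.15 to 9.15, 7.58 and 8.56 (log2 fold change 0.50). The exons of Nr1d1 overlap Thra and those of Dbp overlap Sphk2, each on the other strand. Arntl fell by 0.31 and the kinase Csnk1d by 0.18. Bhlhe41 (log2 fold change 0.23) and Clock (-0.14) were the weakest calls: Bhlhe41 was lost without week 12 replicates 2 or 3 or week 28 replicates 1 or 3 (adjusted p from 0.0782 to 0.112), and Clock without any library but week 28 replicate 1 (0.0683 to 0.138). Per2, at 6.90, 5.08 and 7.95 and then 4.18, 4.08 and 4.76 FPKM, was not called (adjusted p = 0.14). Transcripts of this group vary over the day, and the hour at which tissue was taken is not given in the sources used here. Its part in the result was not tested.

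The promoters of Cry1, which fell, and Ciart, which rose, are shown because both hold the E-box CACGTG to which CLOCK and BMAL1 bind, in capitals. They lie at chr10:85185005-85185304 and chr3:95882179-95882478 of GRCm38.p6, both on the minus strand, and are printed in the gene's direction.
Cry1: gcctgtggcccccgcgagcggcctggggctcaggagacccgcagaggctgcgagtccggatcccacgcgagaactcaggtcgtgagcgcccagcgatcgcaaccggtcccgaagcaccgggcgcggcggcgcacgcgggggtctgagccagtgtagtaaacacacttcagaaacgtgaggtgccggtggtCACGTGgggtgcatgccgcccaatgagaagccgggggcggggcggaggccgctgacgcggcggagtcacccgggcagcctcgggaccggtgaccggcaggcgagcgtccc
Ciart: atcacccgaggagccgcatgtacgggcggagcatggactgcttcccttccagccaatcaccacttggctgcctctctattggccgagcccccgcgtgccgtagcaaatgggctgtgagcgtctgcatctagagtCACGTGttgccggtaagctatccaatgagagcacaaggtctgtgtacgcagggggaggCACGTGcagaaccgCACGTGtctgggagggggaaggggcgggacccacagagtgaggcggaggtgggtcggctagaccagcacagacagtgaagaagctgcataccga
Cry1 has 1 match and Ciart 3. The E-box reads the same on both strands. It occurred in 2 of the 4 clock genes that rose (Ciart and Bhlhe41), in 2 of the 5 that fell and had a listed promoter (Cry1 and Per1), and in 8.09% of all genes in the promoter table. Some of the genes that rose and some of those that fell thus held it, and others of each did not.

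Of 21 tested heat-shock chaperones 6 fell and 0 rose, with a median log2 fold change of -0.10. Hsph1, the exchange factor of HSP70, had 43.8, 40.9 and 46.0 FPKM at week 12 and 35.2, 34.7 and 34.6 at week 28 (log2 fold change of -0.31 ± 0.05 SE, adjusted p = 0.00199 by limma, and 0.0506 in a fit of the 6 libraries alone). The co-chaperones Dnaja1, Ahsa1 and Chordc1 fell by 0.29, 0.28 and 0.24. Dnajb1 (-0.22) was lost when any 1 of the 6 libraries was left out (adjusted p from 0.0571 to 0.132), and Dnajb4 (-0.15) without week 12 replicates 2 or 3 or week 28 replicates 2 or 3 (0.0506 to 0.0979). None of 24 tested genes of the unfolded protein and integrated stress response was called, with 6 at an unadjusted p under 0.05 by limma and a median of -0.18.

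A promoter of Hsph1 is shown for its heat-shock element units. The capitals are TTCNNGAA, an inverted pair of the units to which heat-shock factors bind, which reads the same on both strands. The window is chr5:149636287-149636586 on the minus strand of GRCm38.p6.
Hsph1: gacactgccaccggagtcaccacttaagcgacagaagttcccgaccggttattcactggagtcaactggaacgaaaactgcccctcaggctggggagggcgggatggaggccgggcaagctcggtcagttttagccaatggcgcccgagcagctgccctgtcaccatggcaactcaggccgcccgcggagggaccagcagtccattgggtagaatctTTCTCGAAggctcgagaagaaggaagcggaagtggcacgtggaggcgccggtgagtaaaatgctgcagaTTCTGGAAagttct
The pair occurred in 3 of the 6 chaperones that fell (Hsph1, Chordc1 and Dnajb4) and in 9.60% of all genes in the promoter table.

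Cirbp and Srsf5 were named after their values were seen. Cirbp, the cold-inducible RNA-binding protein, had 55.0, 59.7 and 42.7 FPKM at week 12 and 86.8, 83.6 and 88.8 at week 28 (log2 fold change of 0.72 ± 0.09 SE, adjusted p = 0.000324 by limma, and 0.0505 in a fit of the 6 libraries alone). Its locus in the deposited table is shared with another gene. The splicing factor Srsf5 rose from 133, 135 and 137 to 171, 188 and 192 FPKM (log2 fold change 0.44). Neat1, the long noncoding RNA that scaffolds nuclear paraspeckles, had 34.4, 31.8 and 29.4 FPKM at week 12 and 61.4, 60.8 and 66.7 at week 28 (log2 fold change of 0.96 ± 0.11 SE, adjusted p = 0.000108). It had been at 14.8 to 17.2 at week 5, so it was higher at each age than at the one before, and in transgenic mice it rose by 1.24 from week 12 to 28.

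**Figure D4:**
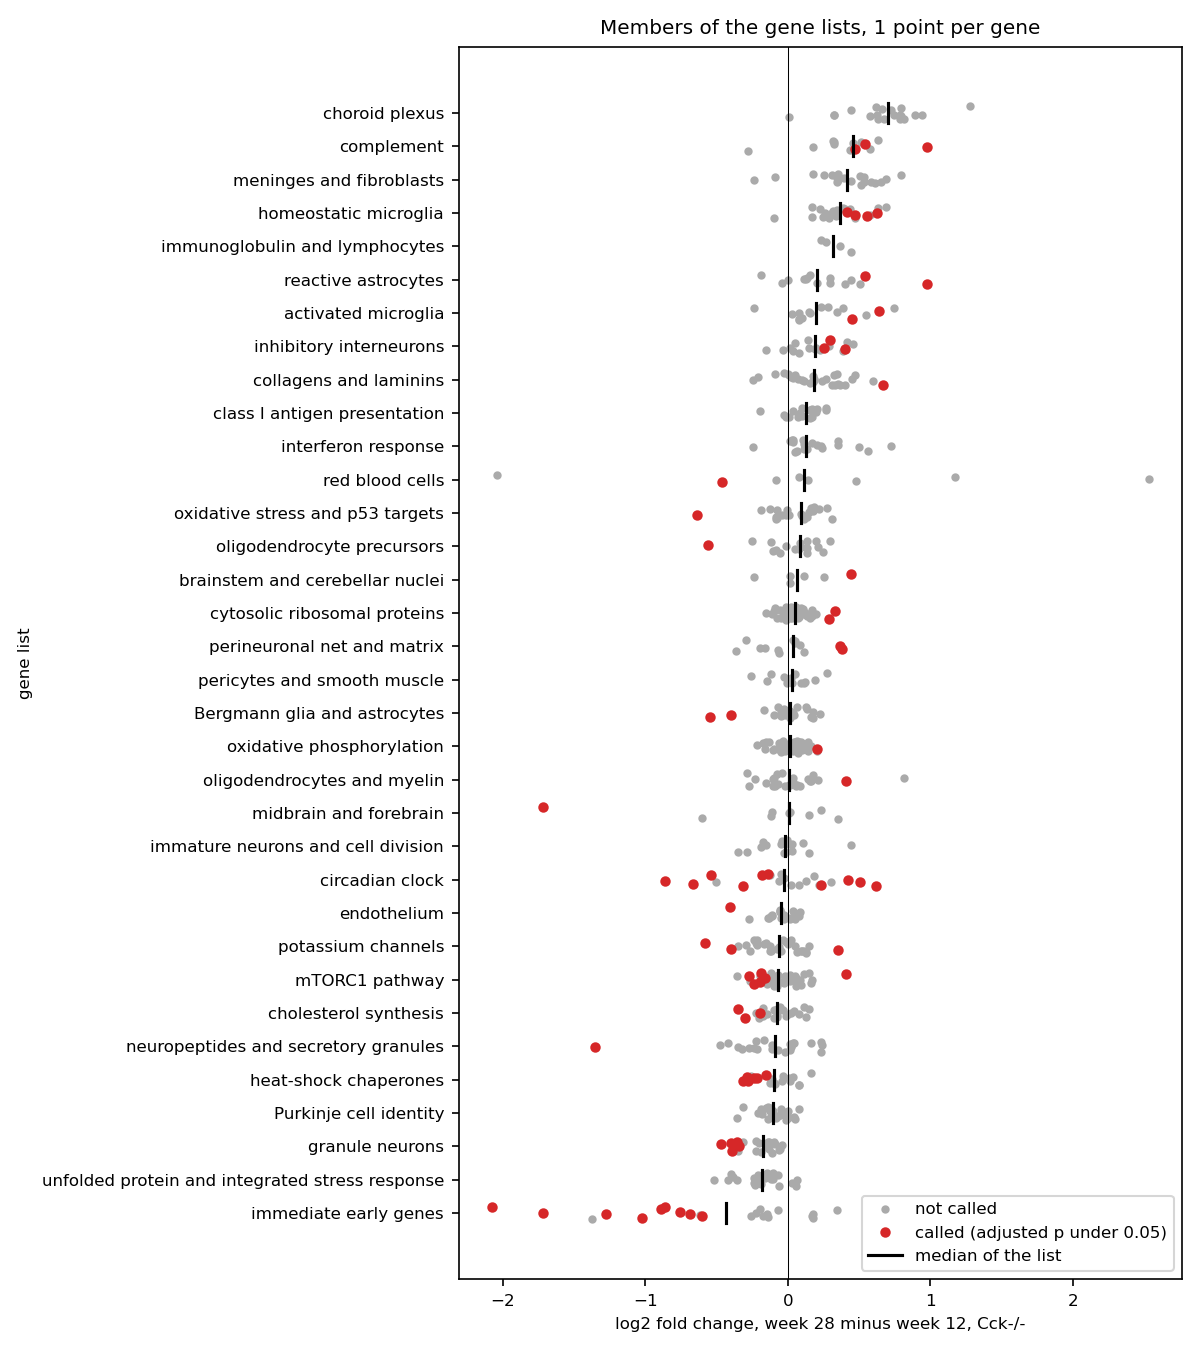
Log2 fold change from week 12 to week 28 in Cck-/- mice (horizontal axis) for each tested member of 34 gene lists (rows, ordered by median), 1 point per gene. Coloured points are called and the black bar is the list's median; immediate early genes have the lowest median (-0.43) and choroid plexus genes the highest (0.70, with 0 of 20 called).

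Of 22 tested granule neuron genes, 5 fell, 0 rose and all 22 had a negative sign, with a median of -0.17. Mab21l1, a developmental regulator, had 32.1, 29.3 and 30.7 FPKM at week 12 and 22.3, 25.0 and 24.5 at week 28 (log2 fold change -0.35, adjusted p = 0.00328 by limma). Its exons overlap Nbea on the other strand. The potassium channel Kcnk1 fell by 0.40, Il16 by 0.36, and the transcription factors Zic1 and Neurod1 by 0.39 and 0.47. Zic1 and Neurod1 were not called without week 12 replicate 3 (adjusted p = 0.0537 and 0.0742). Without week 28 replicate 1 the log2 fold change of Il16 was -0.23 and that of Neurod1 -0.30, both still called. In a fit of the 6 libraries alone none of the 5 was called (adjusted p from 0.0566 to 0.150). Gabra6, the GABA receptor subunit that marks mature granule cells, had 341, 352 and 464 FPKM and then 250, 321 and 362, and was not called (log2 difference -0.31, adjusted p = 0.17). Week 28 replicate 1 had the lowest level of all 6 libraries for each of these 6 genes.

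Larger changes were seen in single neuronal genes. Eomes (Tbr2), the transcription factor of unipolar brush cells, had 11.6, 13.5 and 22.7 FPKM at week 12 and 3.55, 4.19 and 3.86 at week 28 (log2 fold change of -1.75 ± 0.20 SE, adjusted p = 0.000108 by limma). Cpne8, a calcium-dependent membrane-binding protein, had 37.9, 43.5 and 26.8 FPKM and then 8.68, 8.89 and 9.91 (log2 fold change of -1.84 ± 0.13 SE, adjusted p = 2.84e-07). At week 5 they stood at 10.4 to 12.7 and 27.4 to 33.5 FPKM, above all week 28 values, and both fell in transgenic mice, by 1.21 and 2.65. Fam163b, with 7.10, 4.78 and 2.46 FPKM at week 12 and 7.58, 10.3 and 10.2 at week 28, was among the 15 largest increases (log2 fold change 0.91). It was lost without week 12 replicates 2 or 3 or week 28 replicates 2 or 3 (adjusted p from 0.0797 to 0.156), with a log2 difference of 0.58 without week 12 replicate 3. Coro6, a coronin that binds actin, rose from 10.2, 8.15 and 10.9 to 15.3, 21.6 and 20.9 FPKM (log2 fold change 0.91, adjusted p = 0.00195).

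Purkinje cell identity genes were not called in Cck-/- mice. Of 30 tested, 0 were called by limma and 2 had an unadjusted p under 0.05, although 26 had a negative sign (median -0.11). Pcp2 and Calb1 had log2 differences of 0.04 (adjusted p = 0.91) and -0.06 (0.85). In the transgenic mice 26 of the 30 fell over the same interval, with a median of -0.78, yet the direct test of the difference between genotypes called none of them. Atxn1, at 4.05 to 7.01 FPKM in the 6 libraries, had a log2 difference of -0.03 (adjusted p = 0.92).

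Of 18 tested inhibitory interneuron genes 3 rose, among them Kit and Gad1, 0 fell, and the median was 0.19. The receptor tyrosine kinase Kit, a marker of molecular layer interneurons, had 65.3, 63.5 and 67.2 FPKM at week 12 and 96.1, 86.2 and 78.6 at week 28 (log2 fold change 0.40, adjusted p = 0.0195 by limma). Gad1, which makes GABA, rose by 0.30 on the log2 scale. Without week 28 replicate 1 the adjusted p was 0.0591 for Kit and 0.0686 for Gad1, and without week 12 replicates 1 or 2 it was 0.0541 and 0.0640 for Kit and 0.0655 and 0.0915 for Gad1. Without week 28 replicate 2, Gad1 was also lost (0.0608). Among 31 tested potassium channels Kcnn2 rose by 0.35, Kcnj6 fell by 0.58 and Kcnk1 fell, as above. The share called, 9.68% of the list, was that of all genes tested (9.65%). Kcnn2 was lost without any library but week 28 replicate 1 (adjusted p from 0.0709 to 0.114), and Kcnj6 without replicate 1 of either age (0.0709 and 0.0574). In the list of 24 tested neuropeptides and secretory granule genes, Cck was the only gene called.

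Of 22 tested homeostatic microglia genes 4 rose and 0 fell, and 21 had a positive sign (median 0.37), with the highest mean level of the list in week 28 replicate 1. Cx3cr1, the fractalkine receptor, had 4.34, 4.40 and 4.78 FPKM at week 12 and 9.68, 6.96 and 6.16 at week 28 (log2 fold change of 0.62 ± 0.15 SE, adjusted p = 0.0186 by limma). Laptm5, a lysosomal protein, had 5.87, 5.64 and 5.76 FPKM and then 10.8, 7.97 and 8.22 (log2 fold change 0.55). The purine receptor P2ry13 and the complement receptor subunit Itgam rose by 0.41 and 0.47. The ages did not overlap in these 4 genes, as in 30.0% of all genes tested. Without week 28 replicate 1 none of the 4 was called (adjusted p = 0.0562, 0.0642, 0.111 and 0.120), with log2 differences of 0.46, 0.43, 0.30 and 0.33. Each was also lost without 2 or 3 of the other libraries, week 12 replicates 1 and 2 for Cx3cr1 and all of week 12 for Laptm5 (adjusted p from 0.0520 to 0.0605), week 12 replicates 1 and 3 and week 28 replicate 2 for P2ry13 (0.0817 to 0.117), and week 12 replicates 2 and 3 and week 28 replicate 2 for Itgam (0.0833 to 0.116). In the transgenic mice 18 of the 22 genes rose (median 0.61).

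Of 16 tested genes of activated microglia, 2 were called (12.5%, against 9.65% of all genes tested), and both rose. Ctsz, a lysosomal protease, had 27.2, 27.1 and 27.2 FPKM at week 12 and 38.6, 36.9 and 36.8 at week 28 (log2 fold change of 0.45 ± 0.08 SE, adjusted p = 0.00348 by limma), and it was called whichever library was left out. Its exons overlap Nelfcd on the other strand. Cd52 rose by 0.64 and was lost without any library but week 12 replicate 2 (adjusted p from 0.0633 to 0.133). Of 13 tested complement genes 3 rose, with a median of 0.46: C4b, Itgam and Serping1, the inhibitor of the first complement component. C4b, which complement activation deposits on targets, had 3.23, 2.33 and 2.46 FPKM at week 12 and 8.64, 6.31 and 4.28 at week 28 (log2 fold change of 0.98 ± 0.23 SE, adjusted p = 0.0186). C4b was lost without week 28 replicates 1 or 2 or week 12 replicates 2 or 3 (adjusted p from 0.0505 to 0.0643), and Serping1 (log2 fold change 0.54) without any library but week 28 replicate 2 (0.0770 to 0.138), with a log2 difference of 0.36 without week 28 replicate 1. In transgenic mice C4b rose by 1.47 and 8 of the 13 complement genes rose.

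C4b and Serping1 were also the 2 of 15 reactive astrocyte genes that rose (13.3% called, against 9.65% of all genes tested). Gfap, the intermediate filament of astrocytes, had 93.4, 85.8 and 69.7 FPKM at week 12 and 134, 83.1 and 69.5 at week 28, and was not called (log2 difference 0.16, adjusted p = 0.78 by limma). Of 21 tested Bergmann glia and astrocyte genes, Fabp7 and Dio2 fell (9.52% called, near the share of all genes tested). Fabp7, a fatty acid-binding protein of radial and Bergmann glia, had 98.6, 103 and 103 FPKM at week 12 and 85.8, 64.2 and 59.8 at week 28 (log2 fold change -0.55, adjusted p = 0.0349), after 176 to 193 at week 5. It was lost without any library but week 28 replicate 1 (adjusted p from 0.0723 to 0.121). Dio2, which activates thyroid hormone, fell by 0.40 and was lost without week 12 replicates 1 or 3 or week 28 replicates 2 or 3 (0.0600 to 0.147). The alarmin Il33, named after its values were seen, had 15.9, 12.9 and 11.8 FPKM at week 12 and 27.3, 21.5 and 19.8 at week 28 (log2 fold change 0.71, adjusted p = 0.00694), after 3.69 to 4.49 at week 5.

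Of 26 tested myelin genes only Trf, which carries iron and is made by oligodendrocytes, rose (151, 135 and 128 FPKM, then 199, 189 and 161, log2 fold change 0.40, adjusted p = 0.0257 by limma), and the median was 0.01. Mbp had a log2 difference of -0.07 (adjusted p = 0.72) after standing at 2831 to 3259 FPKM at week 5. Trf was lost without week 12 replicates 2 or 3 or week 28 replicates 1 or 2 (0.0729 to 0.0985). Of 18 tested genes of oligodendrocyte precursors, Gpr17, which marks cells committed to becoming oligodendrocytes, fell from 5.93, 4.48 and 6.07 to 3.82, 3.56 and 2.83 FPKM (log2 fold change -0.56, adjusted p = 0.0172), after 12.3 to 12.5 at week 5. It was lost without week 12 replicates 1 or 3 or week 28 replicate 3 (0.0633 to 0.0734). Of 24 tested cholesterol synthesis genes 3 fell and 0 rose, among them Fdps by 0.20 and Cyp51 by 0.35. The share called was 12.5%, against 9.65% of all genes tested. Fdps was lost without any library but week 12 replicate 3 (adjusted p from 0.0522 to 0.106), and Cyp51 without week 12 replicates 1 or 2 or week 28 replicates 2 or 3 (0.108 to 0.141).

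Bcan (brevican), a proteoglycan of perineuronal nets, had 59.8, 59.6 and 61.5 FPKM at week 12 and 74.4, 80.6 and 81.1 at week 28 (log2 fold change of 0.38 ± 0.05 SE, adjusted p = 0.000349 by limma). Hapln2, the link protein at nodes of Ranvier, had 15.7, 16.6 and 17.3 FPKM and then 21.7, 24.2 and 19.2 (log2 fold change 0.37, adjusted p = 0.00919), and these 2 were the called genes among 13 of the perineuronal net and matrix list. Col6a1 had 2.62, 2.55 and 2.52 FPKM at week 12 and 5.47, 3.92 and 4.71 at week 28 (log2 fold change 0.67, adjusted p = 0.00382), the only 1 called of 30 tested collagens and laminins (median 0.18). All 3 kept their call when any single library was left out, and all 3 rose in transgenic mice. In a fit of the 6 libraries alone Hapln2 was not called (adjusted p = 0.0911). Aebp1, a matrix protein, had 5.27, 6.50 and 4.96 FPKM and then 17.5, 7.66 and 9.68 (log2 fold change 0.87). It was lost without any library but week 28 replicate 2 (adjusted p from 0.0519 to 0.105), and its log2 difference was 0.56 without week 28 replicate 1. Of 20 endothelial genes only Mfsd2a, the lipid transporter of the blood-brain barrier, fell, by 0.41. It was lost without any library but week 28 replicate 2 (0.0616 to 0.116).

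The series asks about mTORC1 signalling, a kinase complex that couples nutrients to growth. Of 40 tested genes of the pathway 1 rose and 5 fell, with a median of -0.07. Nprl3, a subunit of the GATOR1 complex that restrains mTORC1, had 8.07, 8.37 and 8.71 FPKM at week 12 and 10.5, 11.4 and 12.4 at week 28 (log2 fold change of 0.40 ± 0.06 SE, adjusted p = 0.000564 by limma), and its locus is shared with another gene in the table. The genes that fell were the kinase Pdpk1 (-0.24), the mTORC1 substrates Akt1s1 (-0.19) and Eif4ebp2 (-0.27), the leucine sensor Sesn1 (-0.20) and the GTPase Rraga (-0.16). Each of these 5 was lost without week 12 replicate 3 (adjusted p = 0.0868, 0.0833, 0.0770, 0.0865 and 0.0609) and without some of the other libraries. Of 42 tested oxidative phosphorylation genes Ndufa5 alone rose, by 0.21, and of 47 cytosolic ribosomal proteins Rpl37 and Rps28 rose, by 0.29 and 0.33. Ndufa5 was lost without any 1 library (0.0502 to 0.152), Rpl37 without week 12 replicates 1 or 3 or week 28 replicates 1 or 2 (0.0520 to 0.0968), and Rps28 without any library but week 28 replicate 3 (0.0558 to 0.157). Cdkn1a (p21), a p53 target that halts the cell cycle, fell from 12.7, 11.8 and 12.2 to 8.31, 7.44 and 6.82 FPKM (log2 fold change -0.64), after 22.3 to 29.9 at week 5, and was lost without week 28 replicate 3 (adjusted p = 0.0541).

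The largest changes of all were often in genes whose locus in the deposited table is shared with another gene. This held for 16 of the 32 called genes that changed by 1 or more (50%), against 18.8% of all called genes and 17.5% of all genes tested. By exons in GENCODE M21, an overlap with a gene on the opposite strand was about as common in each set, at 11 of 31 matched genes that changed by 1 or more (35.5%), 34.0% of called genes and 31.8% of all genes tested and matched. Whether reads were assigned by strand is not given in the sources used here, so reads of genes that overlap on opposite strands cannot be told apart. Nox1, a subunit of NADPH oxidase, was listed at 0 in the 3 week 12 libraries and had 2.93, 3.58 and 3.61 FPKM at week 28 (adjusted p = 4.18e-11 by limma). It overlaps Cstf2 on the opposite strand. In the transgenic mice Nox1 was likewise at 0.0121 FPKM or less at week 12 and at 3.74 to 4.18 at week 28. The pseudogene Rpl14-ps1, which lies in the Trpm4 locus, was listed at 0 in all week 5 and week 12 libraries of both genotypes, and had 3.85, 3.47 and 2.75 FPKM at week 28. Rpl14 itself was not called (log2 difference 0.11, adjusted p = 0.34).

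In 2 other shared loci, overlapping genes changed in opposite directions. Srsf4, a splicing factor, had 28.7, 30.3 and 31.5 FPKM at week 12 and 7.33, 8.93 and 8.69 at week 28 (log2 fold change of -1.74 ± 0.06 SE, adjusted p = 7.39e-11 by limma), while Gm12992, which overlaps it on the opposite strand, had 1.90, 1.99 and 1.76 and then 9.93, 12.2 and 11.3. Hvcn1, a proton channel, fell by 1.18 while Tctn1 on the opposite strand rose by 0.74. In other loci only 1 of the overlapping genes was called. Dynlt1a, a dynein light chain that overlaps Tmem181a (log2 difference -0.12, not called), had 1.96, 2.02 and 1.92 FPKM and then 14.2, 14.7 and 11.9. Its near-identical copy Dynlt1c had 4.97 to 5.25 FPKM and then 4.99 to 5.51, and reads of the copies may not be separable. Grin1os, antisense to the NMDA receptor gene Grin1, rose by 1.25 while Grin1 was not called (log2 difference -0.08). The Srsf4, Hvcn1, Dynlt1a and Grin1os changes had the same direction and were called in the transgenic mice, where they were -1.69, -1.03, 2.23 and 1.33.

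In 3 pairs of near-identical copies or genes on 1 transcript, 1 member rose and the other fell. Amd1 had 5.77, 0.227 and 0.269 FPKM at week 12 and 32.7, 27.4 and 24.3 at week 28, while its copy Amd2 had 75.8, 79.9 and 87.0 and then 41.7, 51.9 and 50.1. The sum of the pair was 83.0 ± 3.74 (SD, n = 3) at week 12 and 76.0 ± 2.90 (SD, n = 3) at week 28. Cers1 and Gdf1, which share a transcript, had log2 fold changes of 2.24 and -3.85, while their sum was 25.3 ± 0.719 and then 23.5 ± 1.79 FPKM (SD, n = 3 each). Amd1 was lost without any library but week 12 replicate 1 (adjusted p from 0.0694 to 0.116 by limma) and Cers1 without week 12 replicates 1 or 2 (0.0614 and 0.0622). Rnaset2b rose by 0.95 and Rnaset2a fell by 1.65, with sums of 4.75 ± 0.130 and 5.53 ± 0.472 FPKM (SD, n = 3 each). Rnaset2b was lost without week 12 replicates 1 or 3 (0.0691 and 0.0628). The pseudogene Rpl31-ps12 had 8.57, 10.9 and 8.32 FPKM and then 0.710, 0.895 and 0.599, a log2 fold change of -2.56, while Rpl31 rose by 0.36. This pair's sum was higher at week 28, at 160.2 ± 7.64 and then 196 ± 23.7 FPKM (SD, n = 3 each), so the loss of the pseudogene was small beside the gain of Rpl31.

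**Figure D5:**
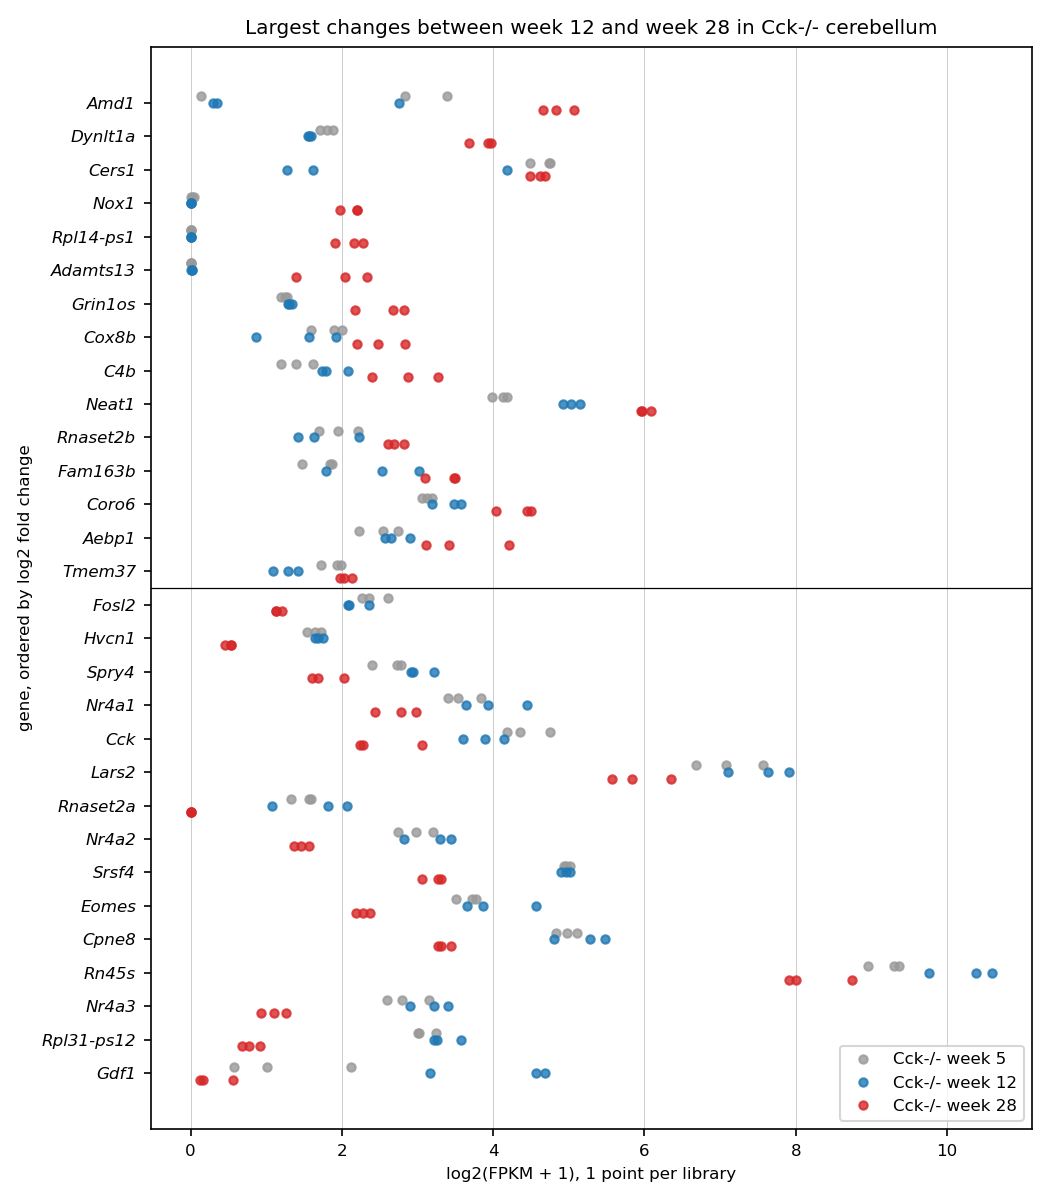
Log2(FPKM + 1) (horizontal axis) in the 9 Cck-/- libraries for the 15 largest increases and the 15 largest decreases among called genes whose ages did not overlap, 1 point per library, ordered by log2 fold change with increases above the line. For 28 of the 30 genes all 3 week 28 libraries lie outside the range of the 6 earlier libraries.

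A few large changes fell outside these groups. Adamts13, the protease that trims von Willebrand factor, was at 0.0087 FPKM or less in the week 5 and week 12 libraries and had 1.64, 3.10 and 4.02 at week 28 (log2 fold change of 1.91 ± 0.17 SE, adjusted p = 4.73e-06 by limma). It shares no locus in the table, and in transgenic mice it was at 0.0173 or less at week 12 and at 2.11 to 3.08 at week 28. Rn45s, the ribosomal RNA precursor, had 1334, 866 and 1544 FPKM at week 12 and 427, 257 and 240 at week 28 (log2 fold change -2.02), and Lars2, a mitochondrial leucyl-tRNA synthetase, had 239, 137 and 198 and then 80.7, 56.0 and 46.5 (-1.63). Both fell in transgenic mice, by 1.76 and 1.47, and how ribosomal RNA was removed from the libraries is not given in the sources used here. Tmem37, a calcium channel subunit, had 1.68, 1.44 and 1.12 FPKM and then 2.93, 3.39 and 3.06 (log2 fold change 0.78), after 2.31 to 2.97 at week 5. Cox8b had 0.812, 1.97 and 2.79 and then 3.59, 4.54 and 6.13 FPKM (log2 fold change 1.05), and was lost without week 12 replicate 1 or week 28 replicate 3 (adjusted p = 0.0793 and 0.0798).

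Of the 30 largest changes, 26 were called in the same direction in transgenic mice, and 11 had a shared locus. The week 28 libraries of both genotypes also had the higher estimated relative depth. Whether the week 28 libraries were prepared, sequenced or quantified differently from the earlier ones, for example in strand, read length or annotation, is not stated in the labels, and such a difference and age cannot be told apart. The part of sequencing depth in these changes was not tested.

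Marker transcripts of tissue next to the cerebellum varied between libraries. All 20 choroid plexus genes had a positive sign, with a median of 0.70, yet 0 were called by limma and 1 had an unadjusted p under 0.05. Their mean log2(FPKM + 1) was 2.54 to 3.00 at week 12 and 3.09 to 3.88 at week 28, while in the transgenic mice the median was -0.52. Ttr, the main product of the choroid plexus, had 610, 1146 and 818 FPKM and then 1214, 1155 and 2604 (adjusted p = 0.74). Of 20 tested meningeal and fibroblast genes 0 were called, 7 had an unadjusted p under 0.05 and the median was 0.42. Red blood cell genes spread more within the ages than between them, with mean log2(FPKM + 1) of 4.83 to 5.91 at week 12 and 4.24 to 6.89 at week 28. With the choroid plexus mean as a covariate, 1057 genes were called, 963 of them also called without it. Of the 104 called genes followed one by one, 90 kept their call and 14 lost it. The 14 were Amd1, Fam163b, Aebp1, Fabp7, Serping1, P2ry13, Itgam, Cd52, Cyp51, Rps28, Kcnn2, Bhlhe41, Clock and Rraga. The part of meninges and blood in the other results was not tested.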

How the data were processed

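RNA from FVB mouse cerebellum was extracted with TRIzol and RNeasy and made into Illumina TruSeq libraries, per the labels' protocols. The authors used TopHat2 2.0.11, Cufflinks 2.2.1 and the mm10 build, per the submitters' processing notes, and deposited FPKM per gene from Cuffnorm for 18 libraries. The annotation is not given in the sources used here, and 10 tested genes carried a failed status. Without counts, no counting interval was computed.

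Here log2(FPKM + 1) was fitted in limma 3.58.1 (R 4.3.3) with a mean-variance trend, a mean for each of the 6 groups and 12 residual degrees of freedom. On simulated data for this comparison (13487 genes), 86% of changes of 0.5 and 99% of changes of 1 were called, with 10 unchanged genes. These figures describe the simulated data and give no rate of false calls for the deposited libraries. There the count of called genes moved with the library left out and with the groups in the fit. Whether the figures hold where a library deviates in many genes together was not tested. The 6 libraries and the 35 gene lists were chosen with earlier results of these data known, and medians and counts of a list stand in for a test of it. Named genes were the 15 largest called changes in each direction with no overlap (no predicted or clone names), the 4 called genes with the smallest p of each list (2 where none was called), the 5 smallest p of the genotype difference, and Cck, Atxn1, Pcp2, Calb1, Gfap, Mbp, Ttr, Xist and Fos. Other genes were named after their values were seen. A few genes that the rule names are not reported here. Locus sharing was read from the deposited table, exon overlap from GENCODE M21 and promoters from RefSeq (GRCm38.p6, the same assembly as mm10). Alternatives covered pseudocounts, filters, scalings, limma options, covariates, the replicate block and leaving out libraries.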

Additional observations from a re-analysis of the deposited data

How the results depend on the processing

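The count of 1301 genes called in Cck-/- mice was 140 with only the groups compared in the fit (138 of them called in both fits), 4244 with library weights, and 635 to 1301 when 1 of the 6 libraries was left out. In transgenic mice the count of 3216 was 1368 with only the groups compared, 5128 with library weights, 984 without the libraries that hold both Xist and Y-linked transcripts, and 1756 to 3546 when 1 library was left out. The genotype difference, 0 by default, was 2344 with library weights and 0 to 149 when 1 library was left out. The causes of these shifts were not tested. The other alternatives for Cck-/- mice gave 1040 to 1301 called genes, except a granule neuron covariate, added after seeing the data, with 1928, of which 883 were also called without it. Of those 1928, 51.7% were higher, against 41.7% of the 1301. A mean FPKM of at least 5 gave 1087, of which 32.9% were higher. For each library the deviation of every gene from the mean of its own group was taken. Between weeks 12 and 28 these deviations correlated at 0.17, -0.39 and 0.21 for same-numbered libraries. For differently numbered libraries they correlated at -0.38 to 0.37. Deviations within a group sum to 0 for each gene, so these values cannot decide whether replicate numbers pair the samples. A replicate block gave 1200 called genes. Of 104 called genes among those followed one by one, 58 stayed called whichever library was left out, 41 stayed called with only the groups compared, and none changed sign under any alternative run. With log2 Xist as a covariate, for the uneven split of the sexes, 1172 genes were called, 1073 of them also called without it. Of the 104 genes, 96 kept their call and 8 lost it. The 8 were Fam163b, Dio2, Itgam, Cd52, Cyp51, Ndufa5, Rps28 and Clock.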

Other observations

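Immune lists other than those of microglia and complement showed no called gene between week 12 and week 28 in Cck-/- mice. Of 20 tested interferon response genes 0 were called by limma, with 2 at an unadjusted p under 0.05 and a median log2 fold change of 0.13. Ifit2 had the smallest p (log2 difference 0.35, adjusted p = 0.16). Of 18 genes of class I antigen presentation 0 were called and 0 had an unadjusted p under 0.05. B2m, the invariant chain of class I molecules, had 133, 140 and 155 FPKM at week 12 and 206, 174 and 141 at week 28, so the ages overlapped. The 4 tested lymphocyte genes and the 13 tested pericyte and smooth muscle genes also held 0 calls and 0 at an unadjusted p under 0.05. Cd74, of class II antigen presentation, had a log2 difference of 0.44 (adjusted p = 0.42).

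Of 16 tested genes of immature neurons and cell division 0 were called by limma, with 3 at an unadjusted p under 0.05. Among 6 tested genes of brainstem and cerebellar nuclei, Nefm, the medium neurofilament subunit of large axons, rose from 28.2, 28.1 and 28.2 to 35.0, 42.7 and 38.8 FPKM (log2 fold change 0.45, adjusted p = 0.0252). Its call was lost without any library but week 28 replicate 1 (adjusted p from 0.0645 to 0.0874). The exons of Nefm overlap Nefl on the other strand. Of 9 tested midbrain and forebrain genes, Nr4a2, which is also an immediate early gene, was the 1 called.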
